A study of Mus musculus with 6 samples.

Results

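Heat shock proteins and J domain proteins are the chaperones and cochaperones that fold new proteins, hold damaged ones and pass both on for refolding or removal. The genes described here are those with an HG-U133A probe set annotated to a single symbol of the HSPA, HSPB, HSPD, HSPE, HSPH, HSP90, DNAJA, DNAJB or DNAJC families, or to CRYAB, BAG1, BAG2, BAG3 or STIP1. The choice used symbols only and no measured value. It gave 57 genes with 92 probe sets, of 11963 genes with such a probe set, and each gene is described by its brightest probe set over all 6 arrays. AHSA1, also sought, had no such probe set. A further 11 probe sets that name HSPA8, HSPA1A, HSPA1B or other members share their annotation with a second gene, so no gene was named from them.

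HSP70 proteins bind exposed stretches of unfolded chains, J domain proteins bring them their clients and set off ATP hydrolysis, and nucleotide exchange factors such as HSP110 and the BAG proteins reset the cycle. HSP90 finishes the folding of kinases and steroid receptors with the help of cochaperones, and the HSP60 and HSP10 chaperonin folds proteins inside mitochondria. Small heat shock proteins keep unfolding proteins soluble without ATP, and several of them, CRYAB, HSPB2, HSPB3 and HSPB7 among them, are known for their high levels in striated muscle, where they bind filaments and the Z disc.

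The arrays compare C2C12, a mouse muscle line, as dividing myoblasts (3 arrays) and as myotubes (3 arrays), the fused cells that it forms on differentiation. The labels give 2.5% horse serum for the myotubes and no medium for the myoblasts, and name no genotype, treatment or time. Myoblast array 3 is called a growing sample in its title and a myoblast in its description. Separate cultures are not stated for any group, so p-values reflect the spread among arrays alone, and that spread may be technical. In bulk RNA, fewer cells of a type and less RNA per cell cannot be told apart. The probes were designed against human transcripts while the labels name mouse as the organism, and which species the RNA came from was not settled here; human symbols are used as the annotation gives them.

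Of 17 tested markers of differentiated muscle 13 were called higher in myotubes, and of 12 markers of dividing cells 11 were called lower, by the test described below. MYOG and CKM, which mark differentiated muscle, were not above the control level defined below on any array. Markers of another cell type also moved with the groups: 7 of 10 fibroblast markers were called higher, and their summed signal ran from 143513 to 312993 on myoblast arrays and from 418535 to 627884 on myotube arrays, with none of the 10 below the control level on every array. The summed signal of 5 epithelial markers ran from 5511 to 7379 on myoblast and from 13005 to 14385 on myotube arrays, with 1 of 3 tested called higher and EPCAM and CDH1 not above the control level on any array. That of 3 neuron markers ran from 31055 to 37034 on myoblast and from 18088 to 24313 on myotube arrays, with neither of the tested ones called. Of the endothelial, blood and adipocyte markers only 1, 2 and 0 were bright enough to be tested, and none was called. The summed signal of the endothelial markers ran from 892.6 to 1821 on myoblast and from 1798 to 3725 on myotube arrays. For the blood and adipocyte markers the ranges of the groups also overlapped. CDH5, PTPRC, CD14, ADIPOQ, PLIN1 and LEP were not above the control level on any array. The part of these markers in the results below was not tested. Across tested probe sets, Pearson's r between myoblast arrays 2 and 3 was 0.988, while the other pairs within a group gave 0.872 to 0.889. The myotube arrays came from a chip lot of their own, so lot and group cannot be told apart. Runs of consecutive laboratory codes in the run records, taken here as series, put myoblast array 1 with the 3 myotube arrays and myoblast arrays 2 and 3 in a second series. The run records number the myoblast arrays differently from the sample titles, which are followed here: the record of myoblast array 1 calls it G3, and those of arrays 2 and 3 call them G1 and G2. Which of them is right was not settled. The arrays put together by their records, 2 and 3, are also the closest pair by signal, as given above. As a level to read dim signals against, the brightest of 27 control probe sets for bacterial transcripts lay between 251.5 and 1040.2 per array.

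Stretches of mouse sequence before the start sites show which of the members searched carry a written-out stress element. They are taken from RefSeq's GRCm38.p6 table, in which 46 of the 57 genes matched by symbol, and 250 bases before each annotated start were searched on both strands. CRYAB, HSP90AA1, HSP90AB1, HSPA6, HSPA9, HSPA13, HSPB2, DNAJC2, DNAJC11, DNAJC12 and DNAJC22 were not found there by symbol. These genes were not searched, so whether they carry either element is not known here. The heat shock element, to which HSF1 binds, was searched as GAA, TTC and GAA in a row with 2 free bases between each and the next, and 0.466% of all 32817 windows hold it. Among the 46 genes 3 do (6.52%, against 0.515% of all 26994 genes): Hspd1, Hspe1 and Dnajb6. Hspd1 and Hspe1, which encode HSP60 and HSP10, lie head to head on opposite strands, with an annotated Hspd1 start 216 bases from that of Hspe1, and their matches are a single stretch between these starts in which 2 overlapping matches make a run of 18 bases. That stretch lies within the annotated span of Hspd1, and the Dnajb6 stretch within that of Gm5129. Both are shown so that the repeated GAA and TTC units can be compared, with the matches in capitals.
Hspe1 and Hspd1, chr1:55088053-55088082, plus strand: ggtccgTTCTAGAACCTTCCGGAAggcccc
Dnajb6, chr5:29735844-29735873, plus strand: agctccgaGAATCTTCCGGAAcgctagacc

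The endoplasmic reticulum (ER) stress element, which serves the unfolded protein response, was searched as CCAAT and CCACG with 9 free bases between them, and 0.113% of all windows hold it. It was found before 3 of the 46 genes, Hsp90b1, Hspa5 and Dnajc3, which all encode ER chaperones or their J domain partner, against 0.13% of all genes. The 250 bases before the starts of Hsp90b1, with 2 matches, and Hspa5, with 1, are shown because these ER chaperones gave different values below. Neither window lies within another annotated gene. A match describes letters and is neither a binding site nor a cause of the values below. A searched gene without a match lacks only these letters in this window.
Hsp90b1, chr10:86705445-86705694, minus strand: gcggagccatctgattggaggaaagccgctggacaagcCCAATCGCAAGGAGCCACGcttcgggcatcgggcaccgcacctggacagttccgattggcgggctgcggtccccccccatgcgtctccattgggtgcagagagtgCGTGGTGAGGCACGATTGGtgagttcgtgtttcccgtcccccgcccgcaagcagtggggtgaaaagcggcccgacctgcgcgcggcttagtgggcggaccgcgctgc
Hspa5, chr2:34771840-34772089, plus strand: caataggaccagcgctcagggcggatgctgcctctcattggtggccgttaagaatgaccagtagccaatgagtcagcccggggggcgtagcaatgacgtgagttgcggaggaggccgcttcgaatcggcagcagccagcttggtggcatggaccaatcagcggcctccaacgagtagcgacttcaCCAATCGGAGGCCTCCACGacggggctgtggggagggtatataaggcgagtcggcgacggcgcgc

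The comparison of myotubes with myoblasts asks how the chaperone genes change as the cells stop dividing and build the contractile apparatus. The mitochondrial chaperonin genes HSPD1 and HSPE1, the HSP110 relatives HSPH1 and HSPA4, the ER chaperone HSP90B1, the cochaperone BAG3 and the J domain genes DNAJB4 and DNAJC9 fell, by 1.53-fold to 2.76-fold. The small heat shock protein gene CRYAB and the J domain gene DNAJC4 rose, 1.68-fold and 2.19-fold. The other 39 of the 49 tested genes did not pass, and 8 were too dim to be tested. Signals were compared as log2(signal + 197) with limma, adjusted by Benjamini-Hochberg over 13329 probe sets at a threshold of 0.05. Fold changes are on that scale, which understates the change of dim genes, and ± after a log2 change is its standard error (SE).

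The 8 falls are 16.3% of the 49 tested members, where 6.73% of all 8161 tested genes were called lower, and the 2 rises are 4.08%, where 5.39% of all genes were called higher. The myotube signals all lay below the myoblast signals for 14 members (28.6%) and above them for 9 (18.4%), and for all genes these shares were 16.3% and 18.5%. The median log2 change of the tested members was -0.08 and that of all tested genes 0.12; 29 members had a negative and 20 a positive change. These counts describe members that passed the filter on dim probe sets.

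**Figure D1:**
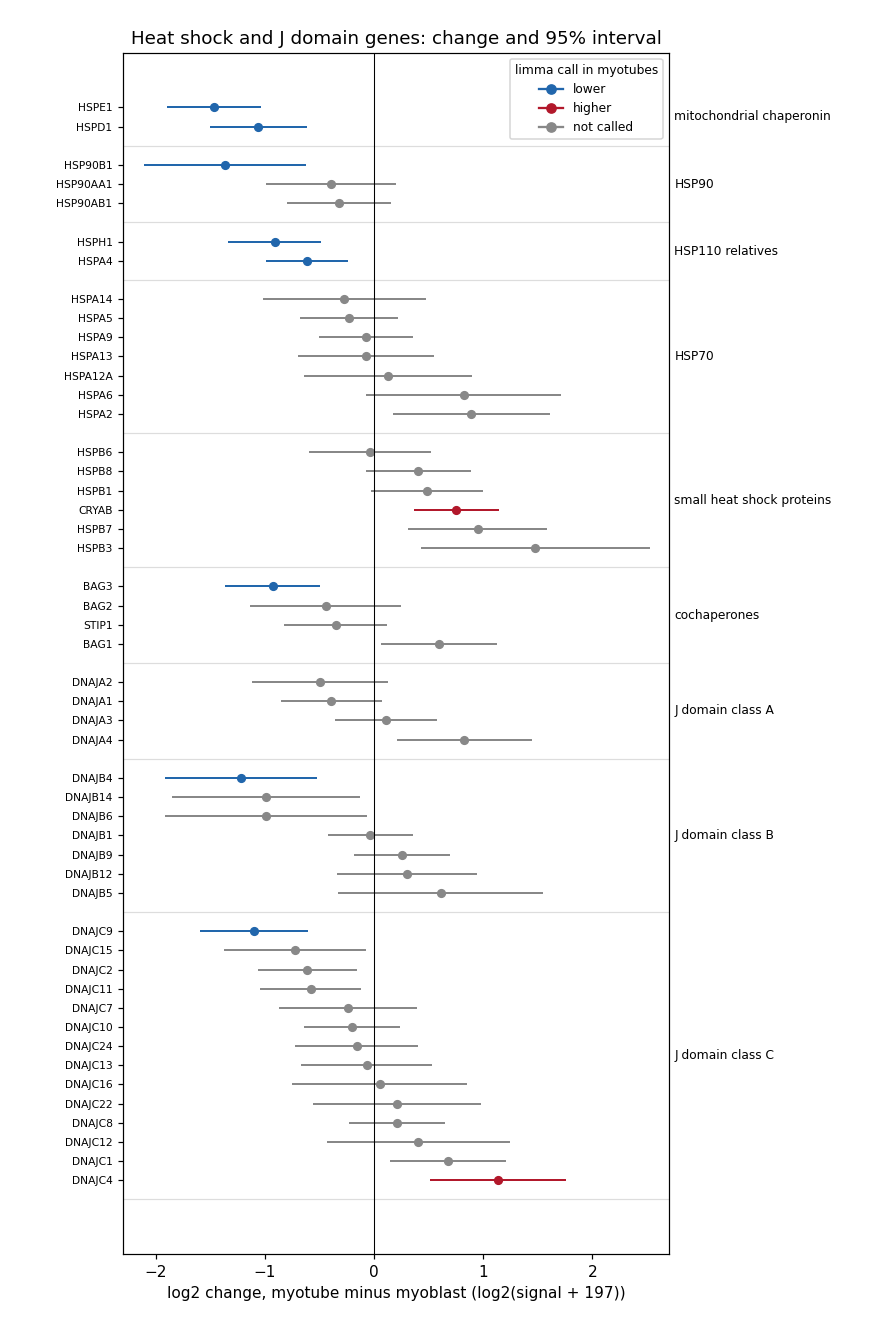
Log2 change from myoblast to myotube (horizontal axis) of each of the 49 tested heat shock and J domain genes, as the brightest probe set of the gene, with the 95% interval from limma (n = 3 arrays per group), ordered by family. Both mitochondrial chaperonin genes and both HSP110 relatives were called lower, and CRYAB and DNAJC4 were called higher.

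Both genes of the mitochondrial chaperonin fell, and HSPE1 had the largest fall of the members tested. HSPE1, the HSP10 lid of the chaperonin, gave signals of 9332, 11396 and 10751 on myoblast arrays 1, 2 and 3 and of 2941, 3988 and 4171 on myotube arrays 1, 2 and 3. Every myotube signal was less than the lowest myoblast signal, and the log2 change was -1.47 ± 0.19 (2.76-fold lower, limma adjusted p = 0.00181). HSPD1, the HSP60 barrel, gave 31365, 27355 and 28041 in myoblasts and 12451, 13113 and 15878 in myotubes. Its groups did not overlap either, with a log2 change of -1.06 ± 0.20 (2.09-fold lower, adjusted p = 0.00898), and its second probe set also fell (-0.96 ± 0.18, adjusted p = 0.00883). These are the genes that share the heat shock element printed above, and they lie next to each other in the mouse genome. The HSPD1 call was lost without myotube array 1 or 2 (limma adjusted p = 0.0518 and 0.0547).

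Other chaperones of the mitochondrion, grouped after their values were seen, did not pass. HSPA9, the HSP70 of the matrix, gave 6671, 8333 and 7693 in myoblasts and 6139, 6848 and 8652 in myotubes, so its groups overlapped. Its log2 change was -0.08 with a 95% interval from -0.50 to 0.35, and those of its J domain partner DNAJA3 were 0.11 and -0.35 to 0.56. DNAJC15 and DNAJC11, J domain proteins of the inner membrane and cristae, had changes of -0.72 ± 0.29 (limma adjusted p = 0.126) and -0.58 ± 0.20 (adjusted p = 0.0914). From the network list described below, GRPEL1 gave 4429, 4908 and 4272 against 3533, 2631 and 2311, groups that did not overlap. Its change was -0.665 ± 0.202 (limma adjusted p = 0.0587). TRAP1, also of the mitochondrion, had a change of 0.40 ± 0.20 (adjusted p = 0.204).

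The HSP90 genes all had a negative change, and 1 of 3 fell. HSP90B1, the ER form also called GRP94, gave 3484, 5400 and 4736 in myoblasts and 871.6, 1736 and 2656 in myotubes, a log2 change of -1.37 ± 0.33 (2.58-fold lower, limma adjusted p = 0.0264). Its groups did not overlap, but the signals within each group spread widely, and its second probe set was not called (-1.08 ± 0.45, adjusted p = 0.143). The cytosolic HSP90AA1 gave 57809, 33841 and 34662 in myoblasts and 33201, 29886 and 29927 in myotubes. Myoblast array 1 stood far above the others, and the change of -0.40 ± 0.27 was not called (adjusted p = 0.333). The constitutive HSP90AB1 gave 36800, 32209 and 33930 against 25406, 27726 and 29036, groups that did not overlap, with a change of -0.32 ± 0.21 that was not called (adjusted p = 0.315).

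Dimmer probe sets of the cytosolic HSP90 genes gave larger falls than the brightest ones. Of 8 probe sets of the 3 HSP90 genes all had a negative change and 4 were called lower. HSP90AA1 has 4, and the other 3 had log2 changes of -0.62 ± 0.22, -1.31 ± 0.26 and -1.20 ± 0.24, the last 2 called (limma adjusted p = 0.0124 and 0.0121). The second probe set of HSP90AB1 also fell (-0.87 ± 0.22, adjusted p = 0.0315). After quantile normalization of the arrays the brightest probe sets were themselves called lower, HSP90AA1 with a change of -0.69 (adjusted p = 0.0059) and HSP90AB1 with one of -0.59 (adjusted p = 0.0495). Whether cytosolic HSP90 is called lower therefore depends on the probe set and on the normalization.

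Among the cochaperones, BAG3 fell and BAG1, BAG2 and STIP1 did not pass. BAG3, a nucleotide exchange factor that links HSP70 to small heat shock proteins and to autophagy at the Z disc, gave 6460, 8268 and 8103 in myoblasts and 3269, 3884 and 4592 in myotubes. The groups did not overlap, with a log2 change of -0.93 ± 0.19 (1.90-fold lower, limma adjusted p = 0.0144). STIP1, the HOP protein that joins HSP70 to HSP90, had a change of -0.35 ± 0.21 (adjusted p = 0.273) by its brightest probe set and of -1.27 ± 0.31 (adjusted p = 0.0279) by its other one. BAG1 and BAG2 had changes of 0.59 ± 0.24 and -0.44 ± 0.31 (adjusted p = 0.126 and 0.346).

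The HSP110 relatives, exchange factors for HSP70, fell where they were tested. HSPH1 gave 5220, 5527 and 5611 in myoblasts and 3418, 2379 and 2699 in myotubes, a log2 change of -0.91 ± 0.19 (1.88-fold lower, limma adjusted p = 0.0142). Its second probe set had a change of -0.01 ± 0.19 (adjusted p = 0.983), so this fall rests on a single probe set. HSPA4 gave 5286, 5071 and 5251 against 3202, 3463 and 3307, a tight separation, with a change of -0.62 ± 0.17 (1.53-fold lower, adjusted p = 0.0388). Of its other 3 probe sets 1 was called lower (-0.97 ± 0.23), and the others, not called, had changes of -0.25 ± 0.19 and 0.42 ± 0.20. The HSPA4 call was lost when any one array other than myoblast array 1 was left out, and after quantile normalization (-0.48, limma adjusted p = 0.104). HSPA4L was below the filter.

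**Figure D2:**
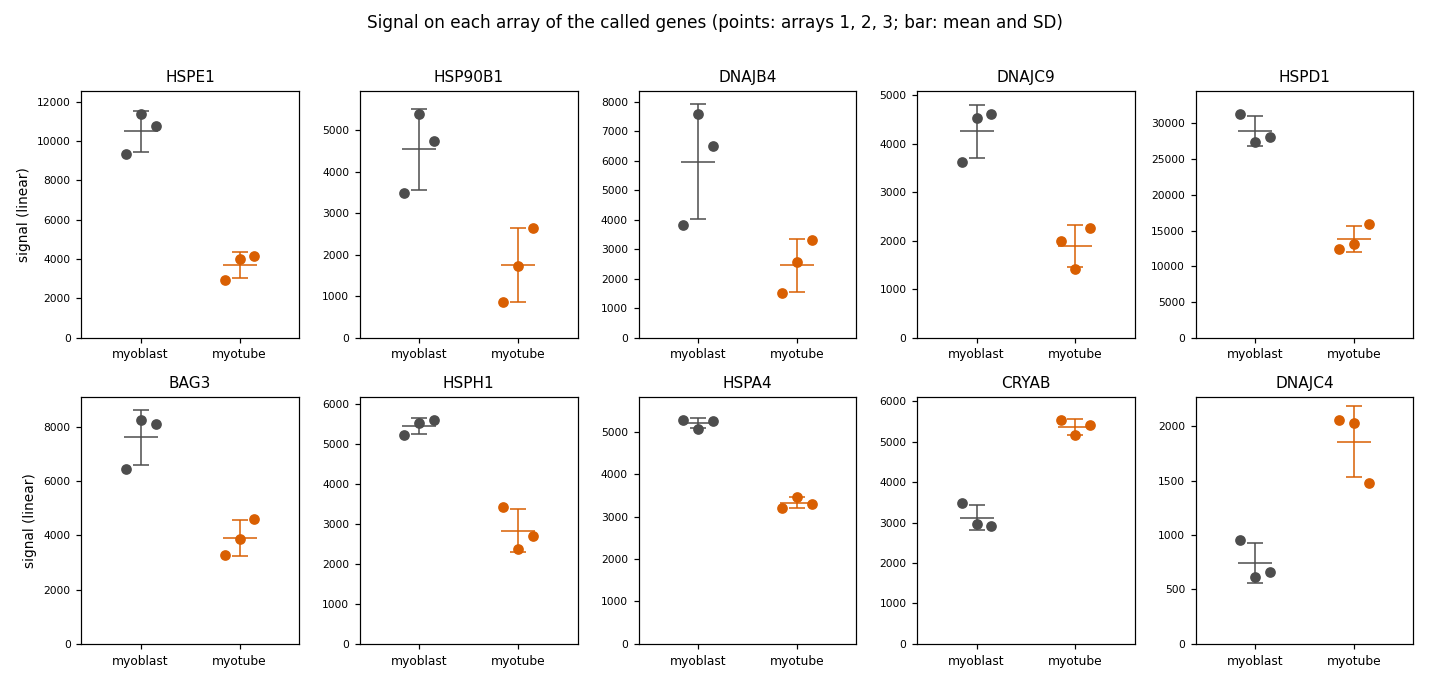
Deposited signal (vertical axis, linear, starting at 0 in each panel) on each of the 3 myoblast and 3 myotube arrays for the 10 called genes, with the mean and SD of each group. The groups do not overlap in any panel; HSPA4 and CRYAB have the tightest groups, and myoblast array 1 (leftmost point) is the myoblast array closest to the myotubes in 8 of 10 panels.

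None of the 7 tested HSP70 genes passed (limma, 1 at an unadjusted p below 0.05). HSPA5, the ER chaperone BiP and the brightest of them, gave 29848, 27187 and 26379 in myoblasts and 23482, 21889 and 25673 in myotubes. These groups did not overlap, and the log2 change was -0.23 with a 95% interval from -0.67 to 0.21 (adjusted p = 0.451), against -1.37 for HSP90B1, the other ER chaperone with the stress element printed above. HSPA2, best known from testis, had a change of 0.89 ± 0.32 (adjusted p = 0.0964) with 3 myotube signals above 3 myoblast signals. HSPA6, a strictly heat-inducible form, had a change of 0.82 ± 0.40 (adjusted p = 0.194), and its signals were at or below the control level on 3 of 6 arrays. HSPA13, HSPA14 and HSPA12A had changes between -0.27 and 0.13, and HSPA1L was below the filter.

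The small heat shock proteins were the family with the highest median change, 0.62 over 6 tested genes, though CRYAB alone passed. CRYAB, the alpha B crystallin that holds desmin and titin in shape, gave 3479, 2956 and 2919 in myoblasts and 5547, 5158 and 5405 in myotubes. The groups were far apart for their spread, and the log2 change was 0.75 ± 0.17 (1.68-fold higher, limma adjusted p = 0.0218). HSPB7, the cardiovascular heat shock protein that binds filamin C, gave 1234, 912.6 and 737.8 against 1461, 2423 and 2264. Its groups did not overlap and its change of 0.95 ± 0.28 lay just outside the threshold (adjusted p = 0.0565). HSPB3 gave 215.1, 76.7 and 378.5 against 1137, 1379 and 469.2, a change of 1.48 ± 0.47 (adjusted p = 0.0692), with 2 myoblast signals and 1 myotube signal at or below the control level.

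HSPB1, the HSP27 protein that caps actin filaments, was bright in both groups, with 30746, 21280 and 22949 in myoblasts and 33262, 33215 and 37705 in myotubes. Its change of 0.49 ± 0.23 did not pass (limma adjusted p = 0.177). HSPB8, the partner of BAG3, gave 1881, 1824 and 1872 against 2037, 2939 and 2690, a change of 0.41 ± 0.21 (adjusted p = 0.221). For all 5 of these genes the groups did not overlap. HSPB6 differed, with 2539, 5012 and 3943 against 3976, 3799 and 3064 and a change of -0.04 ± 0.25 (adjusted p = 0.926). HSPB2, whose gene neighbours CRYAB, was below the filter; it gave 77.1, 52.0 and 73.9 in myoblasts and 296.8, 333.9 and 925.6 in myotubes, and the signal of myotube array 3 alone was above the control level of its array.

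**Figure D3:**
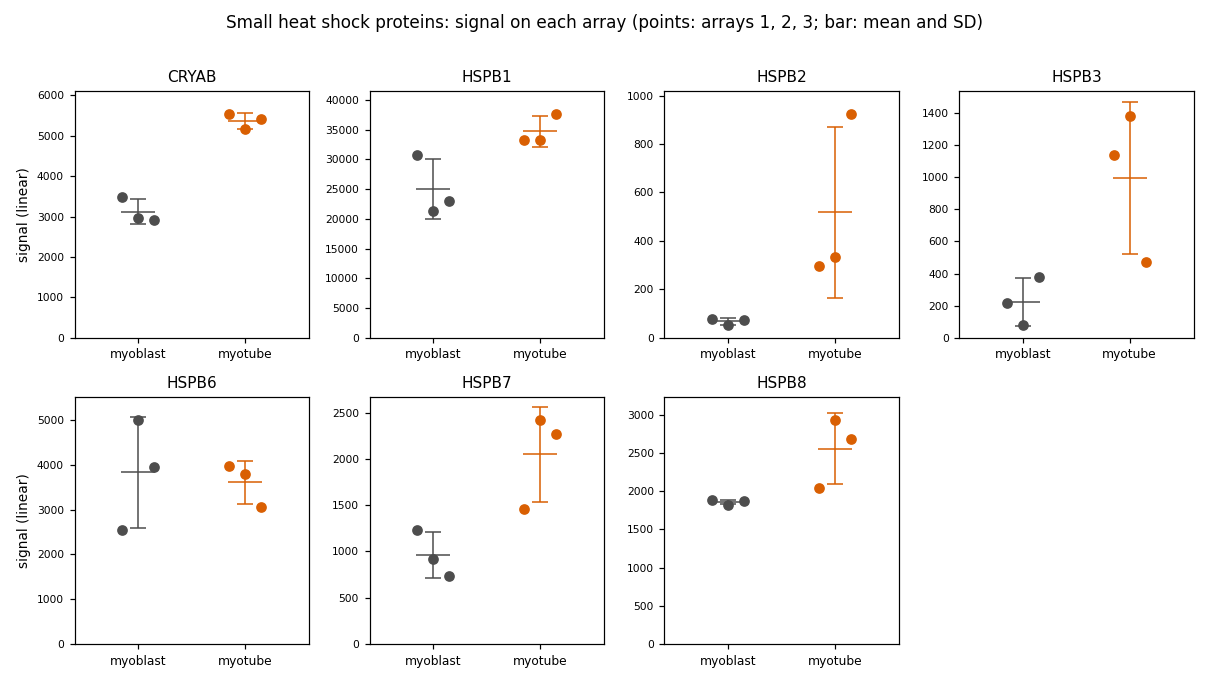
Deposited signal (vertical axis, linear, starting at 0 in each panel) on each of the 3 myoblast and 3 myotube arrays for the 7 small heat shock protein genes, with the mean and SD of each group. The myotube points lie above the myoblast points in every panel but that of HSPB6, as they do for 18.5% of all tested genes. CRYAB was called, HSPB2 was below the filter, and the other 5 genes did not pass.

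Of the J domain genes, 25 of 30 could be tested; 2 fell, 1 rose and 22 did not pass, where 6.73% of all tested genes fell and 5.39% rose. DNAJB4, a class B protein that works with HSP70 in the cytosol and is known from inherited muscle disease, gave 3816, 7591 and 6489 in myoblasts and 1506, 2560 and 3303 in myotubes. The groups were separated by a narrow gap, and the log2 change was -1.22 ± 0.31 (2.33-fold lower, limma adjusted p = 0.0316); its second probe set fell as well (-1.43 ± 0.30, adjusted p = 0.0154). DNAJC9, a J domain protein that also chaperones histones, gave 3635, 4527 and 4622 against 2002, 1422 and 2274, a change of -1.10 ± 0.22 (2.15-fold lower, adjusted p = 0.0122). The second probe set of DNAJC9 had a change of -1.23 ± 0.39 (adjusted p = 0.0693). DNAJC4 gave 958.4, 610.8 and 662.5 in myoblasts and 2061, 2036 and 1484 in myotubes, a change of 1.13 ± 0.28 (2.19-fold higher, adjusted p = 0.0279), and its second probe set one of 0.85 (adjusted p = 0.201).

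The class A genes, the closest relatives of bacterial DnaJ, did not pass. DNAJA1 gave 8387, 10457 and 10830 in myoblasts and 7646, 5921 and 9111 in myotubes, overlapping groups with a log2 change of -0.39 ± 0.20 (limma adjusted p = 0.222). DNAJA3, the mitochondrial form, gave 3997, 3419 and 3197 against 4787, 3671 and 3135. DNAJA2 had a change of -0.49 and DNAJA4 one of 0.82 ± 0.27 (adjusted p = 0.0784).

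Of the other class B genes, DNAJB1, the HSP40 partner of inducible HSP70, was close to level, with 5120, 4354 and 4373 in myoblasts and 4826, 4461 and 4205 in myotubes (log2 change -0.03, 95% interval -0.41 to 0.35). DNAJB6, which restrains polyglutamine aggregates, is mutated in a limb-girdle muscular dystrophy and carries the second heat shock element printed above, had a change of -0.99 ± 0.41 with overlapping groups (limma adjusted p = 0.141). DNAJB14 had a change of the same size, -0.99 ± 0.39 (adjusted p = 0.118), with signals at or below the control level on 4 of 6 arrays. DNAJB9, the ER partner ERdj4 that is induced by unfolded proteins, had a change of 0.25 ± 0.20 (adjusted p = 0.398). DNAJB5 had a change of 0.61 (adjusted p = 0.343). For DNAJB12 the probe sets disagreed: the brightest had a change of 0.30 and another -0.46, neither called, and a dimmer one was called higher (1.25 ± 0.35, adjusted p = 0.0453).

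Of the other class C genes, DNAJC2, which sits on the ribosome and meets new chains, gave 2436, 2400 and 2605 in myoblasts and 1631, 1519 and 1508 in myotubes. Its groups were tight and apart, and the log2 change was -0.61 ± 0.20 (limma adjusted p = 0.0745). The ER protein DNAJC1 had a change of 0.68 ± 0.24 (adjusted p = 0.0871), again with groups that did not overlap. The remaining 8 tested class C genes not yet named had changes between -0.24 and 0.40. DNAJB2, DNAJC3, DNAJC6, DNAJC17 and DNAJC28 were below the filter.

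Probe sets of the same gene often differed in size. Of 25 members with several probe sets, no gene was called in both directions. Among 27 tested probe sets other than the brightest, 7 were called lower and 1 higher. Those called lower belong to HSP90AA1, HSP90AB1, HSPA4, HSPD1, DNAJB4 and STIP1. By the brightest probe set, 6.73% of all tested genes were called lower and 5.39% higher. Of the 39 members not called, 3 (HSP90AA1, HSP90AB1 and STIP1) had another probe set called lower and 1 (DNAJB12) had another called higher. With the second brightest probe set in place of the brightest, 7 members were called lower and 1 higher. In this setting the 32 members with a single probe set kept it. Of these counts BAG3 and HSPE1, lower, and CRYAB, higher, therefore repeat their calls above.

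**Figure D4:**
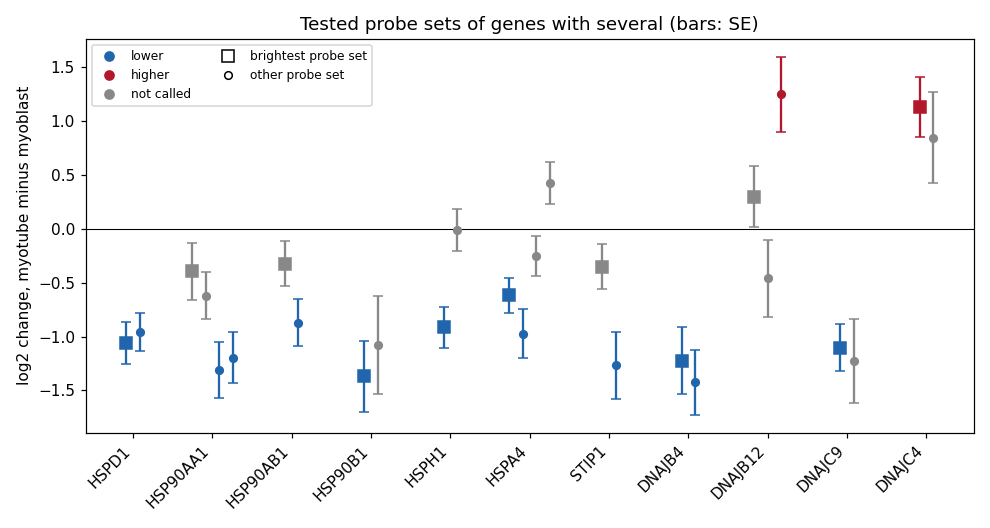
Log2 change from myoblast to myotube (vertical axis) for each tested probe set of 11 members with several, with its SE; large squares are the brightest probe set of a gene and small circles the others. All HSP90 probe sets lie below 0, while those of HSPA4 and DNAJB12 lie on both sides of it.

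A list of 75 other symbols of the chaperone network, chosen with earlier results of these data known, set these members beside their partners; 64 are on the array and 60 were tested. Of these 10 fell, 2 rose and 48 were not called, and the median log2 change was -0.20, where 6.73% of all tested genes fell, 5.39% rose and the median was 0.12. Among the falls were 4 cochaperones of HSP90. PTGES3, the p23 protein that holds HSP90 in its closed state, gave 17079, 19968 and 19547 in myoblasts and 6923, 3791 and 9502 in myotubes (-1.55 ± 0.29, limma adjusted p = 0.00917). FKBP5, an immunophilin of steroid receptor complexes, gave 1316, 2672 and 2653 against 116.8, 65.7 and 429.2 (-2.63 ± 0.43, adjusted p = 0.00497). Its myotube signals were all at or below the control level, and raised to that level they leave at least a 2.47-fold fall. The related FKBP4 had a change of -0.87 ± 0.23 (adjusted p = 0.0368) by its brightest probe set, but 0.21 by its second brightest (adjusted p = 0.703) and -0.33 by the mean of its probe sets (adjusted p = 0.392). CHORDC1, a heat-induced HSP90 binder, had a change of -1.36 ± 0.33 (adjusted p = 0.0275), with 2 of its 3 myotube signals at or below the control level. HSP90 partners with a TPR domain or client role that did not pass went both ways. PPP5C (-0.76 ± 0.24, limma adjusted p = 0.0684), PPID (-0.575 ± 0.278, adjusted p = 0.19), TTC4 (-0.45), TOMM70 (-0.34) and CDC37 (-0.25 ± 0.56) had negative changes. Positive ones were those of FKBP8 (1.02 ± 0.44, adjusted p = 0.149), UNC45A (0.68 ± 0.20, adjusted p = 0.0577) and STUB1 (0.42 ± 0.18, adjusted p = 0.157).

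In the ER, PDIA6 and PDIA4, disulfide isomerases, and SDF2L1, an HSPA5 cofactor, fell by 1.16, 0.67 and 1.09 on the log2 scale (limma adjusted p = 0.0117, 0.0457 and 0.0183). The second brightest probe set of PDIA4 had a change of -0.13 (adjusted p = 0.76), and the mean of its probe sets one of -0.40 (adjusted p = 0.188). For SDF2L1 and for TTC1, named below, 1 of 3 myotube signals was at or below the control level. The ER folding genes CANX, CALR, PDIA3 and HYOU1 did not pass, with changes of -0.35, 0.21, -0.54 and -0.54. The other falls were those of VBP1 (a prefoldin subunit, -1.31 ± 0.21), TTC1 (-1.03 ± 0.26) and TOMM34 (-0.79 ± 0.17), both TPR proteins that bind HSP70 or HSP90. The rises were those of PFDN5, another prefoldin subunit (0.88 ± 0.21, limma adjusted p = 0.0239, but 0.36 and adjusted p = 0.218 by its second brightest probe set), and SQSTM1, the p62 autophagy receptor. SQSTM1 gave 7458, 7823 and 7763 in myoblasts and 19682, 14874 and 19613 in myotubes (1.20 ± 0.18, adjusted p = 0.00385), a call kept in all 19 other settings tried. HSF1, the transcription factor of the heat shock response, had a change of 0.12 ± 0.41 (adjusted p = 0.858).

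Most of these calls depended on how the laboratory series was treated. With the series as a block, a fit in which myoblast array 1 is the only control for the myotubes, the members called lower were HSPD1, HSPE1 and HSP90AA1, and none was called higher (limma, 2 at an unadjusted p below 0.05); of all genes 1.16% were called lower and 1.63% higher. The log2 changes there were -1.18 for HSPD1 (limma adjusted p = 0.0251), -1.30 for HSPE1 (0.0325) and -0.90 for HSP90AA1 (0.0442). The HSP90AA1 value rests on myoblast array 1, which gave 57809 against 33841 and 34662 on myoblast arrays 2 and 3. On the other probe sets of HSP90AA1 array 1 was the lowest of the myoblast arrays. The other 8 called members kept their direction and lost the call: HSP90B1 -1.03, DNAJC9 -0.89, HSPH1 -0.85, BAG3 -0.71, DNAJB4 -0.66, HSPA4 -0.64, CRYAB 0.60 and DNAJC4 0.82, with adjusted p from 0.125 to 0.418. Their direction could not change in this fit, as the groups of these members do not overlap. The change of DNAJB4 shrank the most of the 8. Among the network genes the block fit called SQSTM1 alone (1.24, limma adjusted p = 0.0272). In that fit 15 network genes had a negative and 4 a positive change at an unadjusted limma p below 0.05. With myoblast arrays 2 and 3, the pair closest to each other, averaged and counted as 1 sample, the members called were HSPD1 and HSPE1. The network genes called after this averaging were SQSTM1, higher, and PTGES3, FKBP5, VBP1 and PDIA6, lower (limma adjusted p from 0.0132 to 0.0388). Myoblast array 1 was the myoblast array nearest the myotube mean for 35 of 49 tested members, and for 58.4% of all tested probe sets.

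Leaving out a single array also ended most calls. In such a fit the smaller group and the signal of the array left out cannot be told apart. HSPE1 was called whichever array was left out. BAG3, CRYAB, DNAJB4, DNAJC4 and HSP90B1 lost their calls without myoblast array 2 or 3 or myotube array 1 or 2, with limma adjusted p from 0.0619 for BAG3 to 0.128 for DNAJC4. DNAJC9 and HSPH1 lost theirs without myoblast array 2 or 3 or myotube array 2 (adjusted p from 0.0515 to 0.0732), and HSPA4 had adjusted p from 0.052 to 0.195 in the fits that lost it. Every one of these changes kept its direction, as it must where the groups do not overlap. The log2 change of CRYAB, for example, stayed between 0.71 and 0.78 in the fits that lost its call. Of the network genes SQSTM1, PTGES3, FKBP5 and VBP1 kept the call in all 6 of these fits and PDIA6 in all but that without myotube array 2 (adjusted p = 0.0722), while FKBP4, CHORDC1, PDIA4, SDF2L1, TTC1, TOMM34 and PFDN5 each lost it in 3 or more, with adjusted p from 0.0634 to 0.145.

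**Figure D5:**
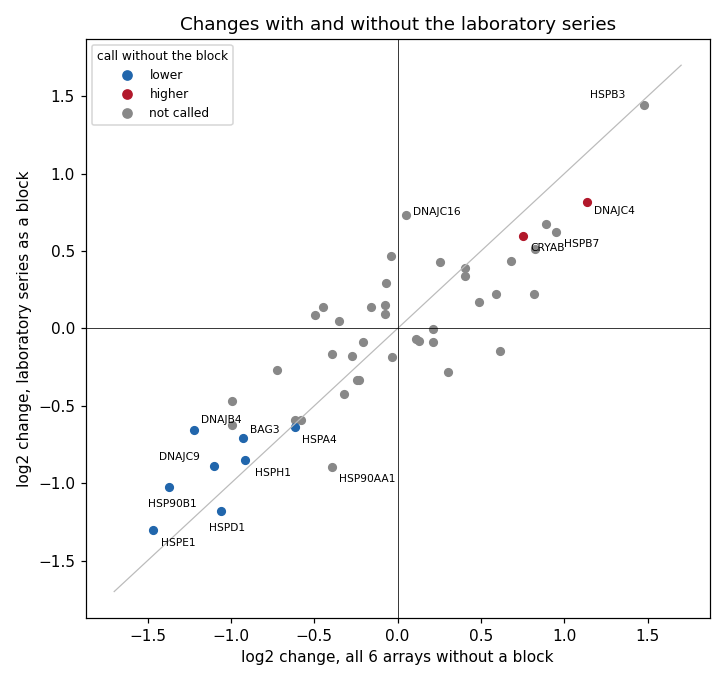
Log2 change from myoblast to myotube with the laboratory series as a block (vertical axis) against the change without it (horizontal axis) for the 49 tested members, with the line of equal values in grey. All 10 called members keep their direction, as they must where the groups do not overlap. HSPA4, HSPH1 and HSPD1 lie nearest the line among the genes that fell, and HSP90AA1 moves from -0.40 to -0.90.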

How the data were processed

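Each deposited value is a linear intensity, 1 signal per probe set and array, computed by the authors with MAS5 per the submitters' processing notes; version and scaling target are not given in the sources used here. Samples were grouped and numbered by the labels, and chip lots and laboratory codes from the run records, deposited as text. Of 22283 probe sets 68 were controls. Of the rest, 19065 carry 1 symbol in the platform annotation, 1043 several and 2107 none.

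Probe sets with a mean at or above the 40th percentile (474.1) were tested with limma 3.58.1 (lmFit, eBayes with trend, two-sided, R 4.3.3) on log2(signal + 197), 197 being the 25th percentile of all values. The code was tested on simulated data. Genes were named by a rule: every called member, the 2 brightest tested members of a family without one, and called genes of the network list; others were added after their values were seen. The members, the network and marker lists and the alternatives were chosen with earlier results of these data known. Correlations of same-numbered deviations were 0.25, -0.184 and 0.38, and no replicate block was used in the main fit. Arrays of different numbers were not compared in this way, and the run records number the myoblast arrays differently. Whether the arrays are paired was therefore not settled. Sequences are from RefSeq tables; no genome was used. The number of arrays limits the precision. Figures were drawn with matplotlib 3.10.9.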

Additional observations from a re-analysis of the deposited data

How the results depend on the processing

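Of 190 values of the 10 called members under 19 other settings, 117 kept the call and 73 lost it. None changed direction. The groups of these members do not overlap, so omitting or averaging arrays, or blocking by series, could not change the direction. The filters, eBayes settings and replicate block leave the log2 change of a probe set as it was. All 10 calls were kept with a pseudocount of 50, the filter at the 60th percentile, 75th percentile scaling, robust eBayes, the replicate block and without myoblast array 1. Members called higher and lower numbered 2 and 8. These were 1 and 3 with eBayes without trend, 0 and 3 with the series block, 0 and 1 with the first series alone, 0 and 2 with myoblast arrays 2 and 3 averaged, and 1 and 7 with the second brightest probe set. At an unadjusted limma p below 0.05 the zeros were 2, 1 and 5. With the replicate block they were 4 and 9. Leaving out single arrays gave 0 to 8 higher and 1 to 11 lower: without myotube array 2 they were 0 and 1, without myoblast array 2 or 3 0 and 2, without myotube array 1 0 and 3, without myotube array 3 4 and 8, and without myoblast array 1 8 and 11. At an unadjusted p the zeros there were 5 to 7. Network genes called higher and lower numbered 2 and 10. These were 1 and 5 with eBayes without trend, 1 and 0 with the series block and with the first series alone (limma, 15 and 12 lower at an unadjusted p), 1 and 4 with arrays 2 and 3 averaged, and 5 and 14 with the replicate block. Leaving out single arrays gave 1 to 8 higher and 3 to 16 lower. In the setting with the second brightest probe set, genes with a single probe set kept that one. By the second brightest probe set FKBP4 had a change of 0.21 (limma adjusted p = 0.703), the reverse of its fall. The causes of these changes were not tested. After quantile normalization the median change of the members was -0.17 and that of all genes 0.04.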
